A study of Gallus gallus with 7 samples.

Results

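The regions described here are promoters of chicken genes that gave almost no RNA in vagal neural crest at Hamburger and Hamilton stage 10 (HH10). A region was taken when it lay on a placed autosome, reached within 1 kb of a transcription start site (TSS), had as its nearest TSS that of a gene with fewer than 10 RNA counts at HH10, and had no TSS of a gene with 10 or more counts within 1 kb. This rule gave 868 regions out of 25469 in the deposited table, 13.0% of the 6663 autosomal promoter regions, and they are called silent promoters below. The 5739 autosomal regions within 1 kb of a TSS whose nearest TSS belonged to a gene with 10 or more counts are called expressed promoters and serve for comparison. In neither set were 56 further regions, whose nearest TSS was that of a silent gene but with an expressed TSS within 1 kb. Expressed promoters were allowed a TSS of a silent gene within 1 kb. The RNA count chose the members and is given as a description, while the chromatin libraries played no part in the choice.

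The study profiled neural crest cells of wild-type chicken embryos (Gallus gallus), sorted by fluorescence from dissected vagal regions. For chromatin, embryos received the E2:citrine reporter by electroporation at HH8 and citrine-positive cells were collected at HH18. The sox10 libraries (n = 2) and the tfap2B libraries (n = 2) come from streptavidin pull-downs of electroporated, Avi-tagged transcription factors biotinylated by BirA, so no antibody was used and the tagged protein was added to the cells' own. The input libraries (n = 2) are chromatin of the same kind without pull-down, and a pull-down without a tagged factor was not analysed here. A single RNA library comes from cells of embryos that received a different reporter, NC2:citrine, at HH4 and were collected at HH10. The RNA therefore precedes the chromatin and comes from another sort, and a gene silent at HH10 is not thereby silent at HH18. The labels do not say whether 2 libraries of a group came from separate embryos, so the p-values below measure the spread between these libraries, which may be technical.

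A promoter is the DNA around a TSS where RNA polymerase assembles, and transcription factors bind there or at distant enhancers. SOX10 is an HMG-box transcription factor of migrating neural crest that is required in glial, melanocyte and enteric neuron lineages. TFAP2B belongs to the AP-2 family, whose members act in neural crest induction and craniofacial development. Input chromatin is sheared and sequenced without selection, and its yield varies along the genome with chromatin openness, base composition and mappability.

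Deposited values were taken as reads scaled by 1 constant per library, the lowest value of each, and dividing by that constant returned whole reads. Over the 25469 regions, sox10 libraries held 2533921 and 1366132 reads, those of tfap2B 3498728 and 1405830, and those of input 7989029 and 13921317. The constant, that is the worth of 1 read, was 1.202 and 2.34 for sox10, 0.895 and 2.08 for tfap2B, against 0.695 and 0.363 for input, so the deeper inputs had the finer steps. The table's lowest value equals 1 read, and whether that stands for 0 or 1 read was not given. Pairs of values below are libraries 1 and 2 of a group, in scaled reads unless stated otherwise.

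The nearest genes of the silent promoters were mostly without any RNA count. They were 840 genes in all, 28 of them with 2 regions. Of the 868 regions, 649 had a nearest gene at 0 counts and 77 at 1 count, and only 10 had one at 9 counts. The HH10 library held 28777461 gene counts, so the limit of 10 counts corresponds to 0.347 CPM (counts scaled to the library total), and 0 counts allows a level of up to 0.104 CPM, for counting error only. Of the 12527 genes below 10 counts, 6.71% had such a region, while 45.7% of the 12354 genes with 10 or more counts were nearest to an expressed promoter. Both totals take in every gene of the RNA data, not only those on placed autosomes. Only the silent side left out regions near a TSS of the other kind, so the shares are not fully alike.

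Silent promoters were less often placed directly over the TSS than expressed ones. The region covered the TSS in 402 silent promoters (46.3%), against 63.9% of expressed promoters. It lay upstream of the TSS in 195 (22.5%), against 15.3%, and downstream in 271 (31.2%), against 20.8%. The nearest genes were also built smaller: their median number of distinct annotated exon intervals was 3 for silent and 11 for expressed promoters, and their median exonic length was 1156 bp for silent and 2159 bp for expressed promoters. Exon sequence was overlapped by 72.2% of silent promoters, against 81.2% of expressed promoters, and 19.0% of silent promoters overlapped no annotated gene body, against 13.3%. These are properties of the deposited gene models, and whether their annotated starts are complete was not tested.

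The share of silent promoters differed widely by chromosome. On chromosome 27, 45 of 127 promoters were silent (35.4%), and the share was 33.3% on chromosome 16 (5 of 15), 31.2% on chromosome 25 (25 of 80) and 29.2% on chromosome 33 (14 of 48). On chromosome 21, 4 of 94 promoters were silent (4.26%), and on LGE64 the single promoter was. By number the large chromosomes led, with 121 on chromosome 1, 106 on chromosome 2 and 75 on chromosome 3.

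In the HH18 chromatin, the median of silent promoters lay below that of expressed promoters in every library, the inputs included. Their sox10 medians were 109 and 105 scaled reads, their tfap2B medians 124 and 110.4, and their input medians 120.2 and 215. Expressed promoters had medians of 129 and 126 in sox10, 189.7 and 146 in tfap2B, against 140.3 and 264.5 in input. By median, silent promoters thus stood below expressed ones in each of the 6 libraries, and as a ratio of medians the separation was widest in tfap2B. This did not hold over the whole range. At the 90th percentile silent promoters were higher in input library 1 alone, at 403 against 374 for expressed promoters.

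**Figure D1:**
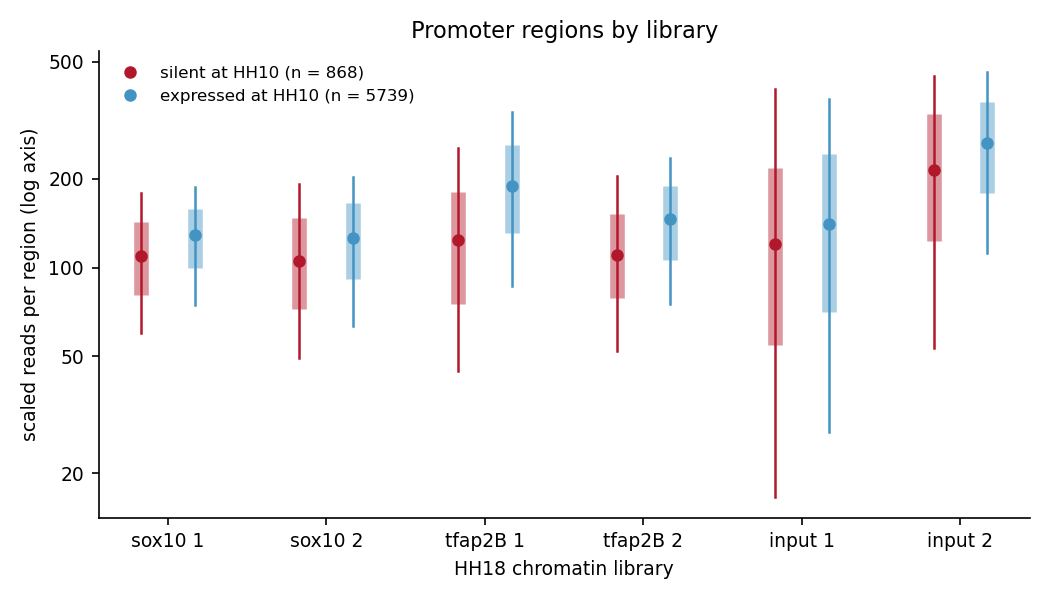
Scaled reads per region (log axis) in each of the 6 HH18 libraries for silent promoters beside expressed promoters; points are medians, thick bars the middle quartiles and thin lines the 10th to 90th percentiles over regions. The silent median lies below the expressed median in every library, and the ratio is lowest in the tfap2B libraries.

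Set as a ratio within each library, which removes the scaling, the silent median was 0.850 and 0.833 of the expressed median in sox10, 0.656 and 0.757 in tfap2B, against 0.856 and 0.812 in input. The mean ratio was 0.842 ± 0.0121 in sox10, 0.706 ± 0.0718 in tfap2B and 0.834 ± 0.0314 in input (SD, n = 2 each). Sox10 overlapped input, while both tfap2B ratios lay below both input ratios. On the log2 scale tfap2B stood 0.24 below input (two-sided exact permutation p = 0.333), sox10 stood 0.01 above input (p = 1, exact permutation), and sox10 stood 0.26 above tfap2B (p = 0.333, exact permutation). With 2 libraries against 2, 0.333 is the smallest p that can be reached, so these differences could not pass a threshold of 0.05. The 4 pull-downs together stood 0.11 below the 2 inputs (two-sided exact permutation p = 0.533). The smallest p of that test is 0.133, so it could not pass 0.05 either.

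The lower tfap2B ratio recurred among regions over the TSS, at 0.646 and 0.757 in tfap2B against 0.766 and 0.759 in input. Upstream of the TSS it was 0.601 and 0.726 in tfap2B against 0.848 and 0.696 in input, where the libraries of tfap2B and input overlapped. Downstream it was 0.750 and 0.900 in tfap2B against 0.925 and 0.995 in input. By chromosome size, the ratio was 0.668 and 0.778 in tfap2B against 0.754 and 0.794 in input on chromosomes 1 to 5. On chromosomes 6 to 10 it was 0.694 and 0.812 in tfap2B against 1.00 and 0.868 in input. On the remaining placed autosomes it was 0.584 and 0.731 in tfap2B against 0.889 and 0.825 in input. Both tfap2B ratios thus lay below both input ratios over the TSS, downstream, on chromosomes 6 to 10 and on the remaining autosomes. The 2 groups overlapped upstream and on chromosomes 1 to 5. Both sox10 ratios lay above both input ratios over the TSS (0.848 and 0.793) and on chromosomes 1 to 5 (0.855 and 0.825). On chromosomes 6 to 10 both lay below (0.867 and 0.830), and in the other strata sox10 and input overlapped.

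Silent promoters varied more among themselves in the inputs than in the pull-downs. From the 10th to the 90th percentile they spanned 60.1 to 179 scaled reads in sox10 library 1, 44.5 to 255 in tfap2B library 1 and 16.7 to 403 in input library 1. On the log2 scale their SD was 0.73 and 0.90 in sox10, 0.99 and 0.85 in tfap2B, against 1.96 and 1.64 in input. The SD of expressed promoters was smaller in each library, at 0.56 and 0.72 in sox10, 0.80 and 0.67 in tfap2B, against 1.71 and 1.01 in input. Across the 868 silent promoters the 2 sox10 libraries had a correlation of 0.77 in log2 scaled reads, the 2 tfap2B libraries 0.60 and the 2 inputs 0.63. Between a sox10 and a tfap2B library it was 0.46 to 0.70, and between a pull-down and an input it was -0.10 to 0.27. These correlations are descriptive, over regions that share each library's depth and base composition.

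Sox10 and tfap2B were compared directly over the 4 pull-down libraries, a comparison in which no input enters. The median log2 difference of silent promoters, sox10 minus tfap2B, was -0.11, against -0.39 for expressed promoters and 0.05 for all regions tested. For regions on placed chromosomes it was -0.16, so silent promoters lay below all regions but slightly above placed ones. Silent promoters were thus closer to parity between the factors than expressed promoters, which were tilted towards tfap2B. In 212 silent promoters (24.5%) both tfap2B libraries stood above both sox10 libraries, against 41.7% of expressed promoters and 21.9% of all 25281 regions tested. The reverse order, both sox10 libraries above both tfap2B libraries, held in 137 silent promoters (15.8%), against 6.36% of expressed promoters and 25.9% of all regions. The excess of the silent over the expressed median was 0.28 on the log2 scale. It was above 0 in each of 16 settings, but most of these, such as other scalings, shift both sets nearly alike and could hardly move it. Leaving out a library could: it moved from 0.28 to 0.14 without tfap2B library 1 and to 0.40 without tfap2B library 2. Its size thus rests on which tfap2B library is used.

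By classes of RNA count, this tilt changed mainly between 0 counts and the lowest class of expressed promoters. The median difference, sox10 minus tfap2B, was -0.07 for the 648 silent promoters tested whose gene had 0 counts and -0.22 for the 219 whose gene had 1 to 9 counts. Among expressed promoters, split into 4 classes of like size by RNA count, it was -0.36 at 10 to 413 counts, -0.40 at 414 to 1429, -0.39 at 1430 to 3789 and -0.40 above that. Across the 4 expressed classes the median therefore moved by no more than a few hundredths. From the class at 0 counts to the lowest expressed class it moved several times as far. That lowest class spans 10 to 413 counts, so the classes do not place the change at 10 counts. The median was -0.34 for the 10 promoters of genes with 9 counts and -0.22 for the 12 of genes with 10 counts, against the order of the classes. Silent promoters were the closer to 0 at each position: -0.20 for silent against -0.41 for expressed promoters over the TSS, -0.08 against -0.42 upstream, and -0.05 against -0.32 downstream. The RNA counts come from 1 library, and no test was made across these classes.

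**Figure D2:**
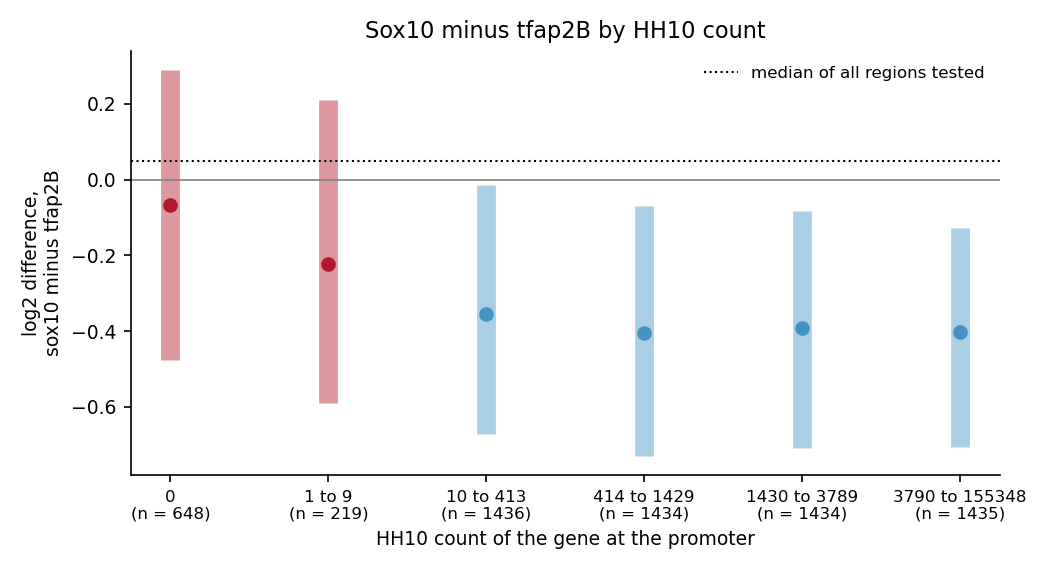
Log2 difference, sox10 minus tfap2B, of promoter regions grouped by the HH10 RNA count of the gene; points are medians over regions, bars run from the lower to the upper quartile, and the dotted line is the median of all regions tested. The classes at 0 and at 1 to 9 counts are the silent promoters, with medians of -0.07 and -0.22, and the 4 classes of expressed promoters have medians between -0.36 and -0.40. The median of regions on placed chromosomes, -0.16, is not drawn.

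Few silent promoters differed between the 2 factors at single regions. With limma (Benjamini-Hochberg adjusted p under 0.05 over all 25281 regions), 10 of the 867 silent promoters tested were higher in sox10 than in tfap2B (1.15%), against 2.47% of all regions tested, 4.47% of those on placed chromosomes, 0.296% of expressed promoters and 9.32% of regions more than 1 kb from any TSS. Another 2 were lower in sox10 (0.231%), against 0.103% of all regions and 0.0936% of placed ones. An unadjusted limma p under 0.05 was reached by 72 of the 867, and the share of all regions at that limit was not counted. With 2 libraries a group these counts are unstable: leaving out either sox10 library left no silent promoter called, and leaving out either tfap2B library raised both counts. The silent median ran from -0.22 to -0.06 over these fits. In a fit that took its spread from all 6 libraries none was called by limma (smallest adjusted p = 0.998), nor was any other region. EdgeR on the 4 pull-downs called 9 higher and 1 lower, against 584 and 17 over all regions.

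The 10 silent promoters higher in sox10 were chosen by that difference, so their sox10 and tfap2B levels are a description. All 10 had a nearest gene at 0 RNA counts, as had 649 of the 868 silent promoters, and 1 covered its TSS, as did 402 of the 868. Their medians were 266 and 387 in sox10, 34.01 and 77.1 in tfap2B, against 0.695 and 0.363 in input, the last pair being 1 read each. All 10 were also above input for sox10 and 8 were above input for tfap2B, while 8 had at most 7 reads in each input. The inputs, which took no part in that comparison, had medians below those of all silent promoters in both libraries.

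The promoter upstream of ENSGALG00000034957, on chromosome 15 from 6554754 to 6555254 (galGal5), had 268 and 391 in sox10, 28.6 and 70.8 in tfap2B, against 0.695 and 0.363 in input. Both sox10 libraries lay far above both tfap2B libraries, by 2.81 ± 0.50 on the log2 scale (SE, limma adjusted p = 0.0257). A region on chromosome 5 from 58128420 to 58128920 had the highest sox10 values of the set, at 604 and 650 in sox10, 102 and 152 in tfap2B, against 0.695 and 2.18 in input. The difference between the factors there was 2.32 ± 0.34 (limma adjusted p = 0.0202). The single region over its TSS, on chromosome 3 from 107926123 to 107926623, had 373 and 524 in sox10 and 103 and 91.6 in tfap2B, a difference of 2.17. Of the 8 named by rule, those on chromosomes 26, 4 and 2 had differences of 2.60, 2.59 and 2.30, that on chromosome 8 lay among them, and that on chromosome 3 at 40051635 had 2.22 and was not called by edgeR. The 10 also included a region on chromosome 27 at 4498397 (3.09) and a region on chromosome 4 at 74679927 (2.45), which the naming rule left out for their lower average level.

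**Figure D3:**
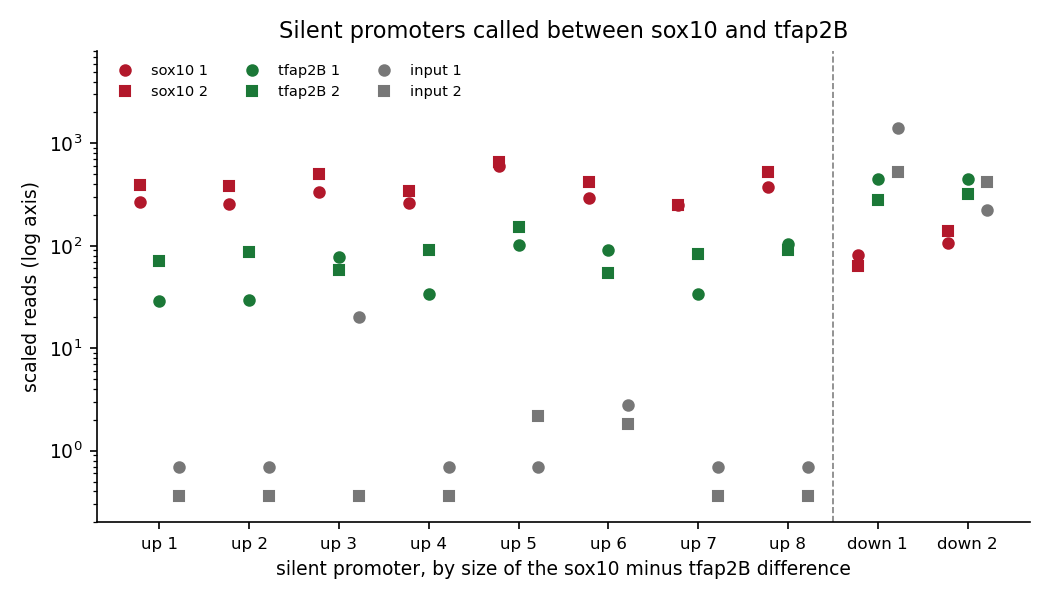
Scaled reads (log axis) in the 6 HH18 libraries for the silent promoters named for a difference between sox10 and tfap2B, in order of its size: 8 higher in sox10 (up) and, right of the dashed line, 2 lower (down); each point is 1 library. In the 8, both sox10 points lie above both tfap2B points and most inputs lie at 1 read, and in the 2 both tfap2B points lie above both sox10 points.

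The clearest of the 2 silent promoters lower in sox10 than in tfap2B was next to ENSGALG00000039489, on chromosome 16 from 613999 to 614499. It had 80.5 and 63.2 in sox10, 451 and 279 in tfap2B, against 1422 and 524 in input. Sox10 was below tfap2B by 2.30 on the log2 scale (-2.30 ± 0.39, limma adjusted p = 0.0246), and both factors were below the inputs. The other, on chromosome 4 from 34882115 to 34882615, had 107 and 138 in sox10, 450.1 and 321 in tfap2B, against 224 and 418 in input. Its difference was -1.64 ± 0.36 (limma adjusted p = 0.049), and edgeR did not call it.

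Each factor was next set against the inputs, in fits that share the same 2 input libraries. In sox10 47 silent promoters were higher than input (5.42%), against 18.4% of all regions tested, 14.2% of placed ones, 2.16% of expressed promoters and 27.5% of regions more than 1 kb from any TSS. Another 149 were lower than input (17.2%), against 22.3% of all regions, 15.8% of placed ones and 16.3% of expressed promoters (limma, Benjamini-Hochberg adjusted p under 0.05). The median log2 difference was -0.70 for silent promoters, -0.69 for expressed promoters and -0.40 for all regions. Scaling by total reads moved the median of all regions to 0.35 and that of silent promoters to 0.06, so the direction against input depends on the scaling. It gave 77 silent promoters higher and 46 lower, against 6167 and 2449 over all regions. Scaling shifts all regions nearly alike, so silent promoters stayed 0.29 below the median of all regions by construction. Over 18 settings, leaving out libraries included, silent minus all regions ran from -0.30 to -0.19. Leaving out single libraries changed the counts over all regions as well as among silent promoters. The silent median became -0.68 without sox10 library 1, -0.62 without sox10 library 2, -1.08 without input 1 and -0.28 without input 2. The median of all regions became -0.39, -0.39, -0.89 and -0.03 in the same order. Leaving out a tfap2B library, which shares the estimate of spread, changed the counts but not the medians.

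In tfap2B 41 silent promoters were higher than input (4.73%), against 10.8% of all regions tested, 10.2% of placed ones and 2.42% of expressed promoters. A further 115 were lower (13.3%), against 17.4% of all regions, 9.67% of placed ones and 6.57% of expressed promoters (limma, same threshold). The median log2 difference was -0.44 for silent promoters, against -0.26 for expressed promoters and -0.14 for all regions. Total-read scaling moved the median of all regions to 0.65 and that of silent promoters to 0.36. It gave 80 silent promoters higher and 41 lower, against 4688 and 2157 over all regions. Leaving out either tfap2B library left no call, among silent promoters or over all regions. The silent median became -0.54 without tfap2B library 1 and -0.35 without tfap2B library 2, against -0.27 and 0.03 for all regions. Without input 1 it became -0.86 and without input 2 -0.08, against -0.55 and 0.02 for all regions. Counts also changed, over all regions as well, without either input or either sox10 library.

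**Figure D4:**
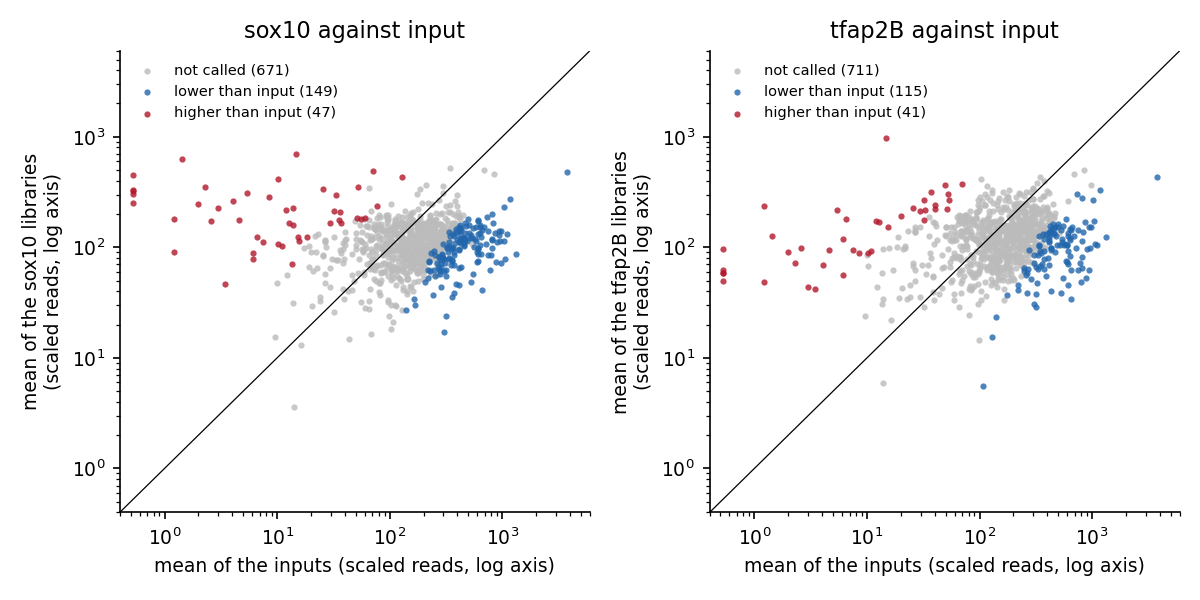
Mean scaled reads of the pull-down libraries (y axis, sox10 in the left panel and tfap2B in the right) against the mean of the 2 inputs (x axis), both on log axes, with 1 point per silent promoter and the line of equality. Those called higher (47 in sox10, 41 in tfap2B) gather where input was low, and those called lower (149 in sox10, 115 in tfap2B) where it was high. The calls were made from the same values that are plotted.

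By their medians, the promoters called in either direction stood apart more in their input than in their pull-down values. They were chosen by the difference between these values, so both levels are a description. The 47 higher in sox10 had medians of 189 and 222 in sox10, 103 and 127 in tfap2B, against 13.2 and 3.99 in input. Of these 47, 28 had at most 7 reads in 1 or more inputs, and 40 had a sox10 mean above the median of silent promoters. The 149 lower in sox10 had medians of 102 and 93.6 in sox10, 106.5 and 117 in tfap2B, against 441 and 405 in input. Of these 149, 138 had both inputs above the medians of silent promoters, while 66 had both sox10 libraries below theirs. For tfap2B, the 41 higher had medians of 114.5 and 148 in tfap2B against 9.73 and 3.27 in input. Of these 41, 26 had at most 7 reads in 1 or more inputs, and 22 had a tfap2B mean above the median of silent promoters. The 115 lower had 86.8 and 110.4 in tfap2B against 506.5 and 428 in input. How many of all silent promoters were within the limit of 7 reads, or past both medians, was not counted. What part of the differences the input level accounts for was not tested.

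Among silent promoters whose mean log2 level over all 6 libraries, inputs included, was at or above the median, the largest difference above input in both factors was at ENSGALG00000038935, on chromosome 1 from 51067475 to 51067975. It had 537 and 873 in sox10, 1022 and 910.0 in tfap2B, against 29.2 and 0.363 in input. Its log2 difference from input was 6.74 ± 1.22 in sox10 (limma adjusted p = 0.0071) and 7.23 ± 1.22 in tfap2B (limma adjusted p = 0.0082), values that depend on the pseudocount because input 2 held at most 1 read. The SE comes from 1 spread shared by all 6 libraries. The inputs lay much farther apart here than the pull-downs, so the SE understates the spread between the inputs. Larger fitted sox10 differences occurred below that level, among promoters with few reads in both inputs, such as those on chromosomes 3, 5 and 15 described above. The nearest TSS of a gene with 10 or more counts lay 3206 bp away and belonged to a gene with 1604 counts. On chromosome 4, the region from 42450626 to 42451126 had 149 and 182 in sox10, 387 and 246 in tfap2B, against 45.2 and 29.4 in input, with log2 differences of 2.15 for sox10 and 3.05 for tfap2B. The region on chromosome 17 from 10001788 to 10002288 stood above input by 3.08 in sox10 and 2.86 in tfap2B. On chromosome 2, the region from 92942347 to 92942847 had 117 and 232 in sox10, 418 and 317 in tfap2B, against 17.4 and 81.6 in input, and was named for tfap2B alone, with a log2 difference of 3.23.

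Below input, the silent promoter with the largest sox10 difference among those named was next to ENSGALG00000022704, on chromosome 1 from 194462527 to 194463027. It had 103 and 72.5 in sox10, 111 and 137 in tfap2B, against 1777 and 857 in input. Sox10 stood at -3.82 ± 0.50 (limma adjusted p = 0.0029) and tfap2B at -3.31 on the log2 scale. For tfap2B the largest was on chromosome 5 from 17060142 to 17060642, with 151 and 129 in sox10, 38.5 and 85.4 in tfap2B, against 1067 and 816 in input, at -3.9998 ± 0.52 for tfap2B (limma adjusted p = 0.0073). The 8 named for sox10 lay between -3.82 and -2.98, and the 8 named for tfap2B between -3.9998 and -3.30. The pull-down values of these regions ran from 25.1 to 151, apart from tfap2B on chromosome 16, and their inputs from 333 to 1777.

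At ENSGALG00000031001, 1 of the 28 genes with 2 regions, silent promoters lay on either side of the TSS and differed in input. The other genes were not compared in this way, and this gene was picked for its high values. Its upstream region, on chromosome 12 from 2709793 to 2710293, had 508 and 463 in sox10, 315 and 431 in tfap2B, against 75.0 and 66.0 in input. Its downstream region, from 2711703 to 2712203, had 446 and 522 in sox10, 354 and 504 in tfap2B, against 4677 and 2872 in input, the highest input of all silent promoters. The pull-down libraries overlapped between these regions and the inputs did not. The upstream region was above input by 2.77 ± 0.42 in sox10 (limma adjusted p = 0.0041) and the downstream region stood at -2.92 ± 0.43 (limma adjusted p = 0.0038). Both regions were also among the 6 silent promoters with the highest pull-downs. The others beside the chromosome 1 promoter at 51067475 were not named for a difference from input. On chromosome 17 at 549411 the values were 457 and 468 in sox10, 563 and 446 in tfap2B, against 561 and 1145 in input. On chromosome 2 at 35930284 they were 489 and 559 in sox10, 419.7 and 449.8 in tfap2B, against 29.9 and 652 in input. On chromosome 6 at 10391545 they were 435 and 559 in sox10, 421 and 498 in tfap2B, against 217 and 1168 in input. In these 3 the pull-downs agreed closely and the 2 inputs differed from each other by more than the pull-downs did.

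The input level and the share of promoters lower than input also varied with position. Downstream of the TSS the silent promoters had input medians of 147 and 272, against 102 and 198 over the TSS and 124 and 187 upstream. Lower than input in sox10 were 83 of 271 silent promoters downstream (30.6%), against 23.8% of expressed promoters there. Over the TSS they were 34 of 402 (8.46%), against 13.0% of expressed promoters, and upstream 32 of 194 (16.5%), against 19.9%. In tfap2B they were 65 downstream (24.0%), against 12.6% of expressed promoters, 26 over the TSS (6.47%), against 4.14%, and 24 upstream (12.4%), against 8.56%. Over all regions tested, 22.3% were lower than input in sox10 and 17.4% in tfap2B. Downstream promoters had the highest share in both sets and for both factors, and the share was higher upstream than over the TSS. Among silent promoters input 1 was higher upstream and input 2 higher over the TSS. Expressed promoters had input medians of 147 and 268 upstream, against 133 and 262 over the TSS, so both inputs were higher upstream. What part of these shares the input level accounts for was not tested.

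Distance to the nearest TSS of an expressed gene also ordered the silent promoters by input level. The medians of input 1 were 173 at 1 to 5 kb (111 promoters), 140.3 at 5 to 20 kb (285), 110.5 at 20 to 100 kb (343) and 79.2 beyond 100 kb (129). For input 2 they were 259.8, 252, 190.5 and 152 in the same order. Both inputs declined with distance at every step. The sox10 medians were much flatter, at 117, 114, 103 and 104.5 in library 1 and 103, 115, 101 and 105 in library 2. The tfap2B medians lay between, at 137, 131, 119 and 106.5 in library 1 and 121, 123, 104 and 97.9 in library 2.

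The median log2 difference of sox10 from input was -1.05, -0.85, -0.57 and -0.02 over the 4 distance classes. Lower than input in sox10 were 32 (28.8%), 67 (23.6%), 41 (12.0%) and 9 (6.98%) of the silent promoters tested in these classes, against 22.3% of all regions tested. In tfap2B they were 26 (23.4%), 51 (17.96%), 30 (8.75%) and 8 (6.20%), against 17.4% of all regions. Higher than input in sox10 were 6 (5.41%), 13 (4.58%), 17 (4.96%) and 11 (8.53%), against 18.4% of all regions, and in tfap2B 4 (3.60%), 11 (3.87%), 17 (4.96%) and 9 (6.98%), against 10.8%. The share of lower calls thus declined with distance at each step for both factors, while the share of higher calls was largest beyond 100 kb. The decline of input with distance was also seen within chromosome sizes. On chromosomes 1 to 5 the inputs had medians of 109 and 223 within 20 kb, against 88.9 and 181 farther away, and on the remaining placed autosomes outside chromosomes 6 to 10 they had 167 and 303 within 20 kb, against 106 and 179.99 farther away. Position relative to the TSS moved with distance too. On the remaining placed autosomes, 38.5% lay downstream and 34.4% over the TSS within 20 kb, against 20.7% and 57.8% farther away. On chromosomes 1 to 5, 30.2% lay downstream and 43.7% over the TSS, against 29.8% and 52.3%. What part of the decline position accounts for was not tested, nor whether gene density or base composition moved with distance.

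**Figure D5:**
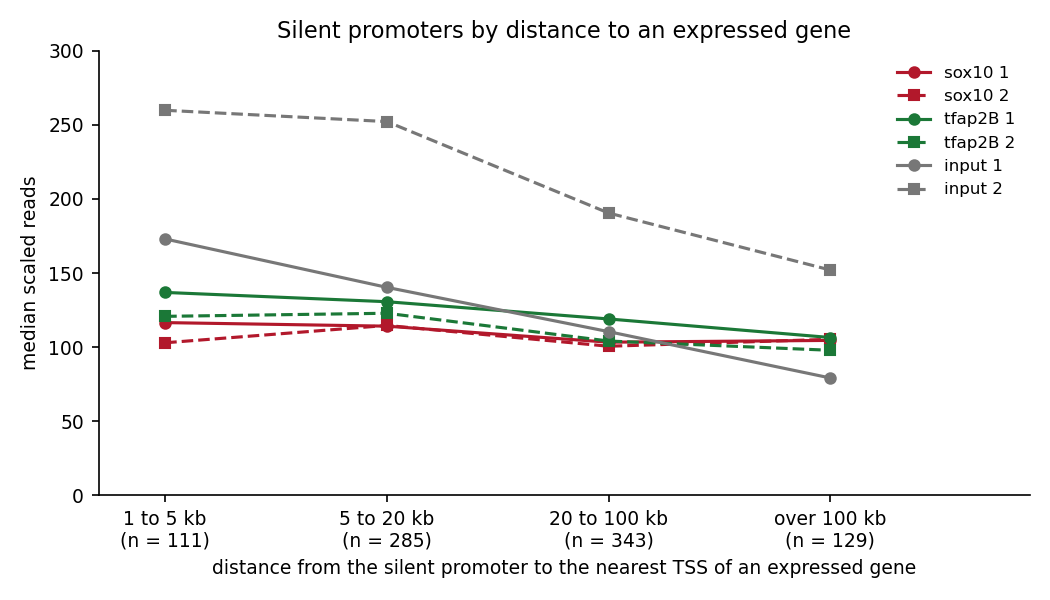
Median scaled reads of silent promoters in each of the 6 HH18 libraries by distance to the nearest TSS of a gene with 10 or more RNA counts (4 classes, 111, 285, 343 and 129 promoters). Input medians decline from 173 to 79.2 and from 259.8 to 152, while sox10 medians stay between 101 and 117.

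The share of lower calls also moved with chromosome size, in silent and expressed promoters alike, while the share of higher calls did not move alike in these sets. Over all regions tested, 18.4% were higher and 22.3% lower than input in sox10, and 10.8% and 17.4% in tfap2B. On chromosomes 1 to 5, which hold 411 silent promoters with input medians of 95.9 and 194, 34 were higher than input in sox10 (8.27%), against 2.48% of expressed promoters, and 49 were lower (11.9%), against 11.2%. On chromosomes 6 to 10 (149 silent promoters, inputs 152 and 233), 3 were higher (2.01%), against 2.42% of expressed promoters, and 28 lower (18.8%), against 17.8%. On the remaining placed autosomes (308 silent promoters, 307 of them tested, inputs 141 and 241), 10 were higher (3.26%), against 1.60% of expressed promoters, and 72 lower (23.5%), against 22.5%. The share of lower calls in sox10 thus grew from large to small chromosomes to nearly the same extent in both sets. In tfap2B the silent promoters had 30 higher (7.30%) and 37 lower (9.002%) on chromosomes 1 to 5, against 2.84% and 4.37% of expressed promoters. On chromosomes 6 to 10 they had 2 higher (1.34%) and 18 lower (12.1%), against 2.22% and 7.07%. On the remaining placed autosomes they had 9 higher (2.93%) and 60 lower (19.5%), against 1.94% and 9.32%.

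Silent promoters were mostly isolated, but some stood in runs. Joining those less than 20 kb apart left 688 alone, 123 in groups of 2 to 4, and 57 in 7 groups of 5 or more. The largest group, of 13 promoters on chromosome 25 between 1020918 and 1046120, had 12 with a gene at 0 counts and a median exonic length of 348 bp. Its medians were 121 and 117 in sox10, 95.8 and 99.96 in tfap2B, against 105 and 213 in input. Both sox10 medians lay above both tfap2B medians, whereas over all silent promoters both sox10 medians lay below. The median log2 difference, sox10 minus tfap2B, was 0.41 in this group, against -0.11 for all silent promoters. Sox10 minus input was -0.06, against -0.70. The group of 11 on chromosome 27 between 433092 and 494120 had 46.9 and 44.5 in sox10, 95.8 and 37.5 in tfap2B, against 155 and 123 in input, so both sox10 libraries stood below 50 scaled reads.

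On chromosome 2 a pair of neighbouring groups differed from each other. The 7 promoters between 149028719 and 149052649 had medians of 262 and 335 in sox10, 253 and 271 in tfap2B, against 71.6 and 275 in input. The 9 between 149072658 and 149152899 had 98.5 and 67.9 in sox10, 59.1 and 56.2 in tfap2B, against 9.73 and 57.3 in input. Every library was thus higher over the first group than over the second. A single promoter of the first group, from 149052149 to 149052649, was called higher in sox10 than input, at 439 and 435 in sox10 and 71.6 and 185 in input (log2 difference 1.91, limma adjusted p = 0.0244). On chromosome 9, the 6 promoters between 932002 and 948266 had 194 and 177 in sox10, 165 and 160.4 in tfap2B, against 53.8 and 99.2 in input. On chromosome 10, the 5 between 19974665 and 20021252 had inputs of 369 and 553, and 4 of them were lower than input in sox10 and 2 in tfap2B. The remaining group, 6 promoters of 3 genes on chromosome 22 between 4568781 and 4582043, had 172 and 184 in sox10, 118 and 139.5 in tfap2B, against 268 and 492 in input. Runs of neighbouring genes can be copies of each other, and whether reads were shared between near-identical copies was not tested.

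At the edge of the rule, the 10 silent promoters of genes with 9 counts had medians of 115 and 98.3 in sox10, 193 and 107 in tfap2B, against 111.5 and 241 in input, and 8 of them covered the TSS. The 12 promoters of genes with 10 counts, just outside, had 102 and 81.9 in sox10, 107 and 117 in tfap2B, against 179.6 and 278 in input, and 2 covered the TSS. By distance, the silent promoters farthest from a TSS lay 990 bp away on chromosome 27 at 675266 and 982 bp away on chromosome 5 at 28816626. The nearest outside were 1004 bp away on chromosome 10 at 20014146 and 1007 bp away on chromosome 33 at 567410.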

How the data were processed

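Values of the 6 chromatin libraries are signal: per the deposited table, the authors' reads per region scaled by 1 constant per library, and whole reads were recovered by dividing by it (100% of values within 0.01). RNA values are counts per gene, as deposited; that column occurs 2 times with identical values. A further 21 columns of per-sample values were not used. The submitters' processing notes name STAR 2.4.2a, Subread 1.4.5, featureCounts, Bowtie, DESeq2, DiffBind and galGal5. How regions were called, the strand setting and whether coordinates count from 0 or 1 are not given in the sources used here. Distances run from the nearest region edge to the TSS of the deposited gene models.

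The main test was limma 3.58.1 (trend, R 4.3.3) on log2(scaled reads + 1) after edgeR's filterByExpr, with Benjamini-Hochberg adjustment over 25281 regions. Sox10 and tfap2B were each set against input in 1 fit of 6 libraries (3 residual degrees of freedom), and sox10 against tfap2B in 4 (2 residual degrees of freedom). The fit of 6 libraries gave each region 1 spread for all of them. Its SEs and adjusted p-values against input can therefore be too small where the inputs differed more than the pull-downs. Fold changes are on the log2(value + 1) scale, which understates low regions. Alternatives were the count tests of edgeR 4.0.16 and DESeq2 1.42.0 on the recovered reads, other scalings, filters, pseudocounts and member definitions, a replicate block, and leaving out each library. The limma step was run on simulated reads that had the same spread beyond counting error in all libraries. A wider spread between the inputs than between the pull-downs was not simulated.

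Named regions were, per comparison and direction, up to 8 silent promoters with the largest difference among those called, at or above the median level and without overlap between groups, plus the 6 highest pull-downs, the 4 highest inputs and the threshold neighbours; others named were chosen after their values were seen. Members and lists were chosen with earlier results of these data known. No gene ID matched a symbol (0 matched), so genes are named by ID, lists of marker genes, including the check of the sorted cell type, were not used here, and no sequence was read.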

Additional observations from a re-analysis of the deposited data

How the results depend on the processing

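Over the alternatives that left out no library, no named region changed direction, and their calls were kept 419 times and lost 24 times; leaving out single libraries, they were kept 135 times and lost 79 times. Counts of silent promoters moved by over 1.5 times as follows. For sox10 against input, the 149 lower became 65 with DESeq2 size factors and 46 with total reads, and the 47 higher became 77 with total reads. Over all regions the 5632 lower became 2780 and 2449 in these settings, and the 4660 higher became 6167. For tfap2B against input, the 115 lower became 61 with DESeq2 size factors, 71 with TMM factors, 67 with only the 2 groups in the fit and 41 with total reads, and the 41 higher became 19 with the 2 groups only and 80 with total reads. Over all regions the 4401 lower became 2619, 2894, 2858 and 2157 in the same order, and the 2721 higher became 1230 and 4688. For sox10 against tfap2B, the 2 lower became 7 with DESeq2, 1 with DESeq2 size factors or edgeR, 6 with placed regions only and 10 with the replicate block, and with all 6 libraries in the fit none was called either way (0 higher and 0 lower, smallest limma adjusted p = 0.998). Over all regions the 26 lower became 155 with DESeq2, 20 with DESeq2 size factors, 17 with edgeR and 0 with all 6 libraries. The counts over all regions are not given here for placed regions only and for the replicate block.

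Medians against the scaling moved to 0.06 (sox10 minus input) and 0.36 (tfap2B minus input) with total reads and to 0.02 (sox10 minus tfap2B) with DESeq2 size factors. Scaling shifts silent and expressed promoters nearly alike, so the gap between them could hardly move with it. Over all settings, leaving out libraries included, the silent minus expressed gap ran from -0.01 to 0.06, from -0.35 to -0.08 and from 0.14 to 0.40 for these 3 comparisons. The mean log2 ratio of silent to expressed promoters in input, -0.26, became -0.37 with silent genes at 0 counts only and -0.37 as a difference of mean log2. Leaving out 1 library gave 6 to 193 higher and 1 to 340 lower for sox10 against input, 0 to 198 and 0 to 264 for tfap2B against input, and 0 to 63 and 0 to 118 for sox10 against tfap2B. The causes were not tested.

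The replicate numbers were not shown to pair libraries: same-numbered deviations correlated at -0.03 for sox10 and input, -0.27 for tfap2B and input and 0.05 for sox10 and tfap2B, with 2 pairs each. For sox10 against input the replicate block gave 40 higher and 108 lower, against 3668 and 4310 over all regions. For tfap2B against input it gave 29 and 80, against 1982 and 3307, and for sox10 against tfap2B 13 and 10. A crossed pairing, added after seeing the data, gave 55 and 113 for tfap2B against input, against 3603 and 4422 over all regions. Where the inputs were low, a few reads set the difference, and why they were low was not tested.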
